A study of Mus musculus with 2 samples.

Results

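Primitive red blood cells, the first red cells of the embryo, were described here from the single-cell RNA sequencing of dissected somites. A barcode, the droplet tag that stands for 1 captured cell, was taken as a red cell when the 7 globin genes Hba-x, Hba-a1, Hba-a2, Hbb-bh1, Hbb-y, Hbb-bs and Hbb-bt held at least 10% of its unique molecular identifiers (UMIs, counts of captured RNA molecules). This rule chose 257 of 19446 barcodes, 122 of 9851 at embryonic day (E) 9.5 and 135 of 9595 at E11.5. These shares were 1.24% (95% Clopper-Pearson interval 1.03 to 1.48) and 1.41% (1.18 to 1.66). The amount of blood left in the dissected tissue and the number of red cells in the embryo cannot be told apart in these shares, and the intervals cover counting error only.

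Inter-limb somites, the segments that give rise to muscle and axial skeleton, were dissected from wild type C57BL/6 embryos at E9.5 and E11.5. Somites of 3 embryos were pooled into 1 library at each stage, dissociated with trypsin and run on the 10x Genomics Chromium system. Barcodes with 200 or more and fewer than 6500 genes and under 15% mitochondrial UMIs were kept. The E9.5 library held 149368952 UMIs over 10121 barcodes and the E11.5 library 136655763 over 10167. With 1 library a stage, stage cannot be told apart from library, no difference was tested between embryos, and every interval below covers counting error alone.

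Primitive red cells arise in the blood islands of the yolk sac, enter the circulation as nucleated cells and mature there together as a cohort. They differ from later definitive red cells in their globins: the embryonic beta-like chains Hbb-bh1 and Hbb-y and the alpha-like zeta chain Hba-x come first, and adult chains follow. Maturation of a red cell combines haem synthesis, iron uptake, assembly of a spectrin and band 3 membrane, slowing division, condensation of the nucleus and loss of organelles.

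Globin UMIs chose the barcodes, so their values are given as a description. At E9.5 the globin share ranged from 10.98% to 48.6% with a median of 33.1%, and at E11.5 from 10.7% to 80.4% with a median of 63.6%. No E9.5 barcode reached 50% while 118 of the 135 at E11.5 did. Just inside the threshold lay shares of 10.98, 11.7 and 12.2% at E9.5 against 10.7, 12.5 and 15.1% at E11.5. Just outside lay 9.18, 9.28 and 9.59% at E9.5 against 1.40, 1.93 and 5.80% at E11.5. The median of all other barcodes was 0% at E9.5 against 0.00547% at E11.5.

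A part of the chosen barcodes also carried RNA of other tissues. In 12 of 122 barcodes at E9.5 against 17 of 135 at E11.5, 5 or more UMIs came from lists of mesenchyme, neural, muscle and epithelium markers. These mixed barcodes, defined after the data were seen, held at least 9 such UMIs at E9.5 against 12 at E11.5, whereas the remaining 110 and 118 held at most 4. They had more genes, with medians of 3921 and 4244 against 2434 and 1657, and they lay low in globin share, between 10.98 and 23.5% at E9.5 and between 10.7 and 50.8% at E11.5. Their UMIs made up 15.4% of all non-globin UMIs of the red cell barcodes at E9.5 against 30.4% at E11.5. The doublet caller Scrublet marked 8 of the 12 at E9.5 and 6 of the 110 that were not mixed, beside 5.61% of all kept barcodes. At E11.5 it set its threshold so high that it marked no barcode. At the E9.5 threshold 11 of the 17 would have been marked, and 2 of the 118 that were not mixed. Results are therefore given for all red cell barcodes and, where a named stage ratio turned or moved by over 1.5 times, also without the mixed ones. The part that these barcodes play in other results was not tested.

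**Figure D1:**
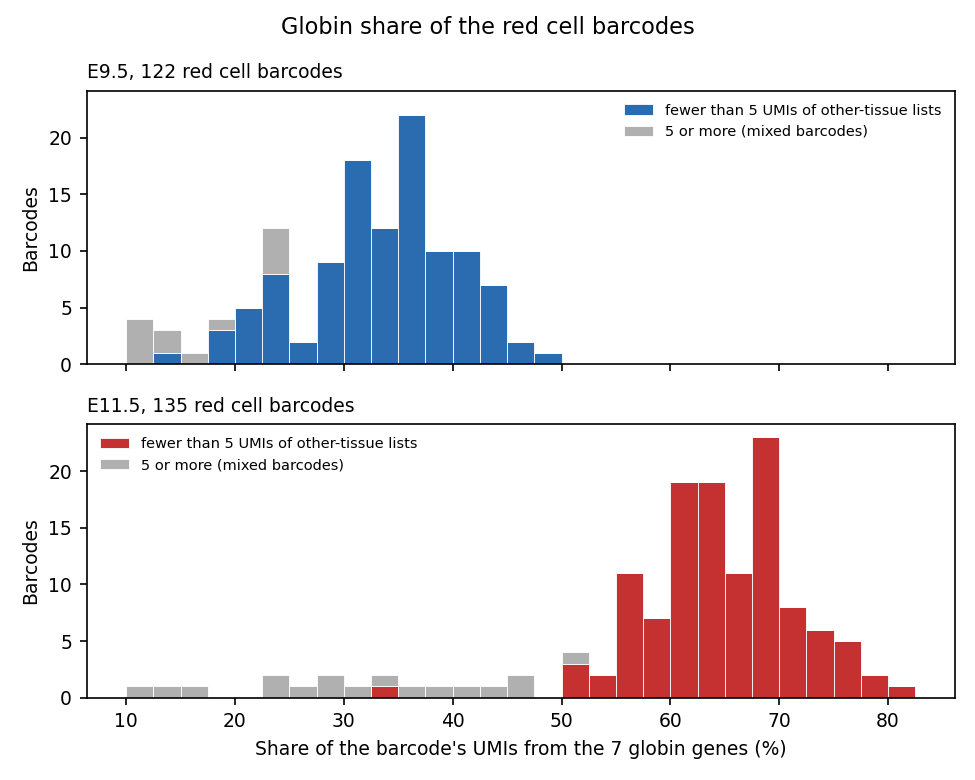
Histogram of the share of UMIs from the 7 globin genes (x axis, percent) over the number of barcodes (y axis) at E9.5 (top, 122 barcodes) and E11.5 (bottom, 135 barcodes), with mixed barcodes in grey. The E9.5 barcodes end at 48.6% and most E11.5 barcodes lie above 50%, with 16 of the 17 mixed E11.5 barcodes below it.

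Among the globins themselves, Hbb-y and Hba-x led at both stages. Hbb-y held 44.6% of globin UMIs at E9.5 against 56.5% at E11.5, and Hba-x held 30.8% and 22.8%. Hbb-bh1, the other embryonic beta-like gene, went from 11.9% to 3.24%. The adult beta-like genes Hbb-bt and Hbb-bs went from 0.189% and 0.610% to 4.19% and 1.15%. The adult alpha genes stayed close, with 7.90% and 7.93% for Hba-a1 and 4.03% and 4.18% for Hba-a2. Hba-a1 and Hba-a2 are near-identical copies, as are Hbb-bs and Hbb-bt, so the split within each pair is uncertain.

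Single barcodes varied around these shares. Adult beta-like genes made up 0% to 6.36% of a barcode's beta-like UMIs at E9.5 with a median of 0.908%, and 1.32% to 30.7% at E11.5 with a median of 7.93%. No barcode at either stage had more adult than embryonic beta-like UMIs. Within the embryonic pair, Hbb-bh1 made up a median of 21.9% at E9.5, from 5.17 to 54.0%, and of 4.71% at E11.5, from 1.03 to 15.4%. Hba-x exceeded the adult alpha genes in all 122 barcodes at E9.5 and in 131 of 135 at E11.5. The rule used these genes, so they are no test of the label.

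The red cell barcodes were chosen by their globin share alone, and genes outside the rule were then compared between them and all others. Levels are given as UMIs per 1000000 UMIs that are not of the 7 globin genes, so that the amount of globin RNA does not set them, and without correction for gene length. Of 2775 genes with 100 or more UMIs in the red cell barcodes of both stages together, 161 (5.8%) were at least 4-fold higher than in the other barcodes in both libraries, and 25 (0.901%) were at least 4-fold lower. Among the 161 higher genes were 18 of 23 membrane and blood group genes, 11 of 12 haem synthesis genes and 8 of 13 erythroid transcription factors with enough UMIs. This comparison is a description, since the rule made the groups. The minimum of 100 UMIs was counted in the red cell barcodes alone, which favours genes high there. The balance of 161 to 25 is therefore not a result.

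The 4 genes with the highest lesser ratio of the libraries were Kel, Hemgn, Trim10 and Alas2. Kel, the Kell blood group endopeptidase, stood at 74.95 at E9.5 against 283 at E11.5, beside 0.0363 and 0.0393 in other barcodes, a log2 ratio of 11.01 and 12.81. Hemgn, a nuclear protein of blood-forming cells, stood at 398 and 1223 against 0.196 and 0.0943. Trim10, a RING finger protein of red cell precursors, stood at 205 and 455 against 0.109 and 0.0393. All 3 were near absent from the other barcodes of both libraries. Alas2, the red cell form of the first enzyme of haem synthesis, stood at 909 and 1692 against 0.537 and 0.118, and had a UMI in 117 of 122 and 134 of 135 barcodes. Among the rest of the 20 highest were Cldn13, Icam4, Epb42, Slc4a1, Rhag, Rhd, Acp5, Ncf4, Nxpe2, Asb17os, Ermap, Cited4, Gata1 and Hbq1b, with lesser log2 ratios from 10.41 down to 8.90. Barcodes with 4 or more endothelial genes detected (370 at E9.5 against 77 at E11.5), here called endothelial-marked, served as a background from cells of the vessel wall. In them Kel, Epb42, Slc4a1, Rhag and Rhd had a level of 0 at both stages. Cited4 and Gata1 were not at 0 there, and stood at 26.1 and 10.2 at E11.5, against 725 and 92.1 in the red cells. The Gata1 level rested on few barcodes, with a UMI in 2 of the 77 endothelial-marked ones at E11.5 and in 1 of the 370 at E9.5. Ncf4, a subunit of the phagocyte NADPH oxidase, was an exception among white blood cells, with a level of 87.9 in the 94 barcodes of E11.5 with 4 or more white blood cell genes (white-marked) against 678 in the red cells.

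The windows of 250 bases before the start sites of the first 4 genes are shown, because their RNA set the barcodes apart most and red cell genes are known to be driven by GATA and KLF factors. They are from RefSeq on build GRCm38.p6, written in the direction of the gene, and capitals mark AGATAA, which factors of the first family bind, and CCNCNCCC, of the KLF type, on either strand, where overlapping matches of CCNCNCCC run together.
Kel (chr6:41704326-41704575, minus strand): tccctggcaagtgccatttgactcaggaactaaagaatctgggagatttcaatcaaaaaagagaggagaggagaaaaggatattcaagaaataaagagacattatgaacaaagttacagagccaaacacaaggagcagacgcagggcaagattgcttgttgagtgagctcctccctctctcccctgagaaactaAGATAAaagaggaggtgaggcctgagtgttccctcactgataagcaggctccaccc
Hemgn (chr4:46404184-46404433, minus strand): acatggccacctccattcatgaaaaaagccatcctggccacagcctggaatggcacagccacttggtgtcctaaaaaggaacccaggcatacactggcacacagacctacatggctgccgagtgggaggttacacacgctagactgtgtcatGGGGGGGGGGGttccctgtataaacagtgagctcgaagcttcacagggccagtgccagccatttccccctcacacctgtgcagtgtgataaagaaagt
Trim10 (chr17:36869324-36869573, plus strand): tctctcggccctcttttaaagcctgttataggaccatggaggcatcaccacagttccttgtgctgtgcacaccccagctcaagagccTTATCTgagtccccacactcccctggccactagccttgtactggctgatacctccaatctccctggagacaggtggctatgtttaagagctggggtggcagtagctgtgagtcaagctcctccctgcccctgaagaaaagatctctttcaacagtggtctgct
Alas2 (chrX:150547167-150547416, plus strand): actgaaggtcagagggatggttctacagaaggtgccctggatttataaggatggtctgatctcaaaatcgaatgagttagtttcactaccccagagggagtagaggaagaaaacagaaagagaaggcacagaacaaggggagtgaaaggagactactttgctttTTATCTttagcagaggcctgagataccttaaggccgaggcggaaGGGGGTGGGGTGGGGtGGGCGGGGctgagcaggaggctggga
AGATAA was found once each in Kel (bases 56 to 51 before the start), Trim10 (163 to 158) and Alas2 (86 to 81), and not in these letters in Hemgn. Overlapping CCNCNCCC matches lay in Alas2 from base 42 to 28 before the start, with a separate match from 26 to 19, and in Hemgn from base 98 to 88, a run of G. Of these 20 genes, 15 were in the table with 17 windows, and 7 windows (41.2%) held AGATAA and 10 (58.8%) CCNCNCCC, against 9.99% and 45.9% of all 32851 windows. Of 17 windows of the 14 matched genes with the highest stage ratios below, 17.6% held AGATAA and 70.6% CCNCNCCC, and of 18 windows of 11 genes with the lowest, 5.56% and 83.3%. Of those 18 windows, 8 were of 1 gene, Slc29a1, which also held the AGATAA match. By gene, CCNCNCCC was in 8 of the 11, against 13096 of all 27025 genes. A match is a string of letters and was not tested as a binding site.

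White blood cell genes were near 0, while the vessel and megakaryocyte lists rested on a few genes. Of 14 white blood cell genes, 12 were at 0 at E9.5 against 10 at E11.5, with 2 and 7 UMIs in all, the most abundant being Coro1a with 1 and 4. Ptprc, the pan-leukocyte gene, had no UMI in any of the barcodes. Of 10 endothelial genes, 6 were at 0 at each stage, and Egfl7 held 72 of the 76 UMIs at E9.5 against 9 of the 12 at E11.5. Of those 72 UMIs of Egfl7, 59 lay in barcodes that were not mixed, while Cdh5 had 1 UMI at E9.5 against none at E11.5, and Kdr none and 1. Egfl7, a secreted vessel protein, was found in 53 of 122 barcodes at E9.5, at a level of 56.2 beside 66.8 in other barcodes and 791 in the endothelial-marked ones. Of 11 megakaryocyte genes, 8 and 7 were at 0, Pf4 among them, and Itga2b, an integrin that early blood cells also carry, led with 21 and 18 UMIs, 16.4 and 17.3 per 1000000 beside 0.733 and 2.12 in other barcodes. The summed level of the megakaryocyte list was 32.0 and 33.6, beside 15.1 and 84.3, so at E9.5 it was higher in the red cell barcodes than in the others.

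Genes of other tissues are given with and without the mixed barcodes, whose definition by these lists sets that the sums without them are low. The 14 mesenchyme and somite genes summed to 139.8 at E9.5 against 449 at E11.5 with all barcodes, and to 8.31 and 19.3 without the mixed ones, against 1162 and 2100 in other barcodes. Muscle genes summed to 35.9 and 491, and to 32.3 and 71.7 without the mixed barcodes. In the latter, Mylpf, a myosin light chain, made up 30 of 35 UMIs at E9.5 against 44 of 52 at E11.5. Neural genes summed to 53.1 and 117, and to 18.5 and 29.0 without them, and epithelial genes to 22.6 and 1.92, with no UMI outside the mixed barcodes.

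**Figure D2:**
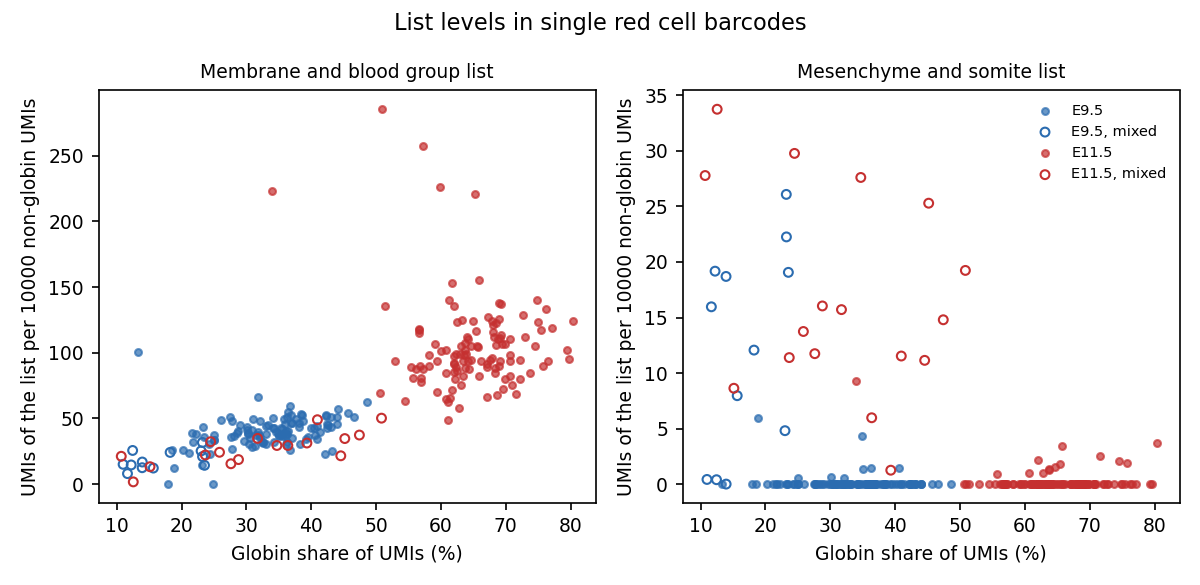
Level of the membrane and blood group list (left) and of the mesenchyme and somite list (right) in each red cell barcode, in UMIs per 10000 non-globin UMIs (y axes), by its globin share in percent (x axes), with mixed barcodes as open circles. Without mixed barcodes the left panel has a median of 39.2 at E9.5 and one of 98.0 at E11.5, and the right panel is at a median of 0 at both stages.

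The stages were then compared. At E11.5, 314 of the 2775 genes (11.3%) were at least 2-fold higher and 312 (11.2%) at least 2-fold lower than at E9.5, and the median log2 ratio was -0.13. Without the mixed barcodes 2156 genes had 100 UMIs, of which 271 (12.6%) were higher and 387 (17.9%) lower, sharing 210 higher and 242 lower genes with the first counts. Per UMI of any gene, globins included, every ratio was lower by 0.73 on the log2 scale, so that 99 genes (3.57%) were higher and 1138 (41.0%) lower. Ratios between 0 and 0.73 given below therefore change sign on that scale. The red cell barcodes of E11.5 held fewer non-globin UMIs, with a median of 6203 against 9567, and fewer genes, 1749 against 2465.

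Haem is built in a chain of enzymes that starts with Alas2 and ends with Fech, which inserts the iron. Of 14 genes of haem synthesis, 12 had enough UMIs, 11 of them at least 4-fold higher than in other barcodes in both libraries beside 5.8% of all genes, and 2 were at least 2-fold higher at E11.5 and none lower, near the 11.3% of all genes, with a median log2 ratio of 0.29. Fech went from 366 to 818, a log2 ratio of 1.16 (95% interval 0.99 to 1.32), and Slc25a38, the mitochondrial glycine carrier, from 62.5 to 161, 1.37 (0.98 to 1.77). Alas2 lay just short of 2-fold at 0.90 (0.79 to 1.00), and past it at 1.12 without the mixed barcodes. Urod, Alad, Uros and Ppox, which act in between, had ratios between 0.12 and 0.58, below 2-fold. Cpox, the enzyme after Urod, was at -0.14, or 0.06 without the mixed barcodes, and Tmem14c, a mitochondrial carrier of haem precursors, at -0.64 (-0.72 to -0.57). Alas1, the form used by other tissues, had 7 and 12 UMIs in all.

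Iron handling genes were higher at E11.5 in 4 of 8 and lower in 1, beside 11.3% and 11.2% of all genes, with a median log2 ratio of 0.98. The ferritin chains Fth1 and Ftl1, which store iron, were the leading RNAs outside the globins and ribosomal proteins at E11.5, above each mitochondrial message. Fth1 went from 10429 to 29420.1 per 1000000, a log2 ratio of 1.50 (1.47 to 1.53), and Ftl1 from 3773 to 10864, 1.53 (1.48 to 1.57). Slc25a37, mitoferrin, which carries iron into the mitochondrion, went from 960.3 to 2174, 1.18. Isca1, of iron-sulphur cluster assembly, had 1.71 (1.12 to 2.34). Tfrc, the transferrin receptor that takes iron into the cell, went the other way, from 547 to 259, -1.08 (-1.28 to -0.87), and stood at -0.79 without the mixed barcodes, short of 2-fold. Glrx5, Blvrb and Snx3 had ratios of 0.29, 0.42 and 0.79. The summed level of the list per barcode had a median of 213 per 10000 non-globin UMIs at E9.5, from 94.98 to 306.4, and of 602 at E11.5, from 195 to 1481, in barcodes that were not mixed.

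Genes of the membrane skeleton and blood groups were higher at E11.5 as a list. Of 25, 23 had enough UMIs, 14 were at least 2-fold higher beside 11.3% of all genes, and 1 was lower. The median log2 ratio was 1.24, and 1.47 without the mixed barcodes, where 15 were higher. Rhd, an Rh blood group protein, went from 161 UMIs (126 per 1000000) to 1002 UMIs (962), a log2 ratio of 2.94 (2.69 to 3.18). Its partner Rhag had 1.24 (0.87 to 1.61). Xk and Kel, whose products are joined on the red cell surface, had 2.02 (1.52 to 2.55) and 1.92 (1.58 to 2.27), and Icam4 and Ermap, which carry blood group antigens, 1.97 and 1.69. Slc4a1, the band 3 anion exchanger that anchors the skeleton, went from 368 to 1047, 1.51 (1.35 to 1.67).

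Among parts of the skeleton, Epb41, Epb42, Dmtn and Add2 had ratios from 1.16 to 1.52, past 2-fold, while Sptb and Ank1 had 0.88 and 0.45, and Sptb 1.02 without the mixed barcodes. Gypc, glycophorin C, had -0.37 (-0.76 to 0.02). The exception was Slc2a1, the glucose transporter GLUT1, which went from 207 to 59.5, a log2 ratio of -1.80 (-2.22 to -1.39). In other barcodes Slc2a1 was also lower at E11.5, at 162 and 29.6. Aqp1, the water channel of mature red cells, had no UMI at either stage. Per barcode, not mixed, the list summed to a median of 39.2 per 10000 non-globin UMIs at E9.5, with 51.7 as the 90th percentile, and to 98.0 at E11.5, with 72.3 as the 10th percentile.

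**Figure D3:**
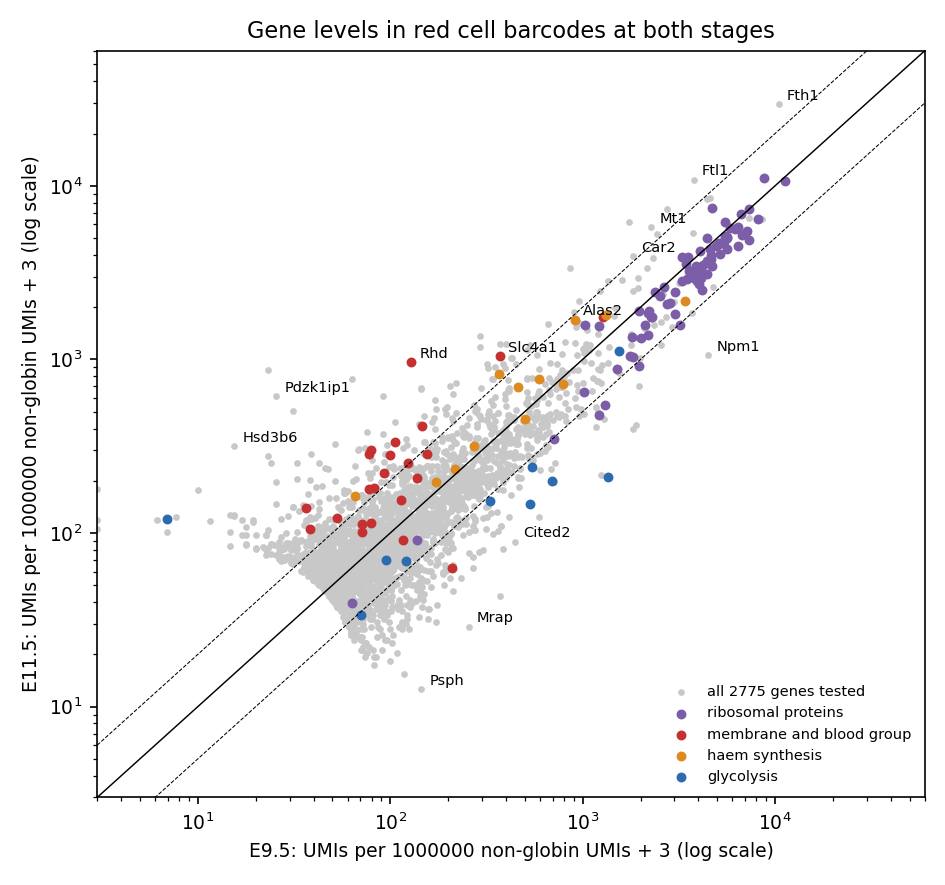
Level of each of 2775 genes in red cell barcodes at E9.5 (x axis) and E11.5 (y axis), in UMIs per 1000000 non-globin UMIs plus 3, on log scales, with the line of equality and dashed lines at 2-fold. Membrane and blood group genes lie mostly above the line (14 of 23 past 2-fold) and glycolysis genes mostly below it (6 of 10 past 2-fold).

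Of 5 genes of gas transport, 3 had enough UMIs and 2 were at least 2-fold higher, beside 11.3% of all genes, with a median of 1.12. Car2, the carbonic anhydrase of these cells, went from 1822 to 3952, 1.12 (1.04 to 1.19), and Bpgm, which makes the 2,3-bisphosphoglycerate that lowers oxygen affinity, from 290.4 to 1179, 2.02 (1.85 to 2.19). Car1 had no UMI at either stage, which, taken as 3 barcodes, allows a share of up to 2.46% of barcodes with a UMI at E9.5 against 2.22% at E11.5. Hbq1b, a theta globin outside the rule, had 62 and 205 UMIs and a ratio of 2.02 (1.61 to 2.46).

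Of 21 erythroid transcription factors, 13 had enough UMIs and 1 was at least 2-fold higher, near the 11.3% of all genes, with a median log2 ratio of 0.30 beside -0.13. Klf1, which drives adult globin and many membrane genes, went from 237 to 361, 0.61 (0.39 to 0.83). Gata1, the master factor of red cells, stood at 104 and 92.1, -0.17 (-0.57 to 0.22), and 0.10 without the mixed barcodes. Tal1, a partner of Gata1, had 0.74 (0.45 to 1.04), and Nfe2, Gfi1b, Lyl1, Lmo2 and Zfpm1 had ratios between -0.09 and 0.57, the lowest being Zfpm1, with 0.26 without the mixed barcodes. Foxo3, a factor of late red cell maturation, was the gene past 2-fold, with 30 and 71 UMIs and 1.54 (0.91 to 2.21), and did not reach 100 UMIs without the mixed barcodes. Genes of blood progenitors were near 0, with 1 and 0 UMIs for Kit, 1 and 0 for Gata2 and 0 and 1 for Myb. Epor, the erythropoietin receptor, stood at 175 and 208, 0.25 (-0.02 to 0.53), with a UMI in 93 of 122 and 92 of 135 barcodes. In the list of erythropoietin and kit signalling, 3 of 11 genes had enough UMIs and 1 was past 2-fold, beside 11.3% of all genes, with a median of 0.25. That was Bcl2l1, the survival gene downstream of Epor, which went from 19.5 to 94.1, 2.27 (1.62 to 2.96).

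The list of maturation, autophagy and proteolysis genes was higher at E11.5 in 8 of 14 and lower in none, beside 11.3% and 11.2% of all genes, with a median log2 ratio of 1.08. Ube2l6, a ubiquitin-like conjugating enzyme, went from 89.0 to 369.5, 2.05 (1.75 to 2.37), Ucp2, a mitochondrial inner membrane carrier, had 1.60, and Fam210b, a mitochondrial protein of red cells, 1.22. Map1lc3b, an autophagosome protein, had 1.17 (0.96 to 1.39), and Bnip3l, the receptor by which red cells clear mitochondria, 0.88 (0.68 to 1.08), below 2-fold. Trim10 had 1.15. Antioxidant genes were higher in 4 of 14 and lower in none, beside the same shares, with a median of 0.17. Gpx1 and Prdx2, which remove peroxide, were among the 10 most abundant RNAs at E11.5 outside the globins, mitochondrial and ribosomal protein genes, and Gpx1 went from 2739 to 7360.1, 1.43 (1.37 to 1.48), and Prdx2 from 4590.1 to 8477, 0.89 (0.84 to 0.93), or 1.10 without the mixed barcodes. Of 14 surface and adhesion genes, 3 had enough UMIs and 2 were higher, beside 11.3% of all genes, among them Cd59a, which shields red cells from complement, with 2.39 (2.06 to 2.73), and Cd24a with 1.43. Gclm, of glutathione synthesis, Cat, catalase, and Gpx4 had 1.26, 1.23 and 1.15.

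The cell cycle lists parted. Of 20 G2 and M phase genes, all had enough UMIs, 5 were at least 2-fold higher at E11.5 beside 11.3% of all genes and none lower, with a median log2 ratio of 0.67, which became 0.94 without the mixed barcodes and -0.05 per UMI of any gene. Mki67, the nuclear protein Ki-67, went from 314 to 939.7, 1.58 (1.41 to 1.75), against 155 and 183 in other barcodes. Nusap1, of the mitotic spindle, had 2.73 (2.34 to 3.15), and Cenpf, Cenpe and Kif11, of kinetochore and spindle, 1.24, 1.22 and 1.20. Of 14 S phase genes with enough UMIs none was past 2-fold, beside 11.3% higher and 11.2% lower of all genes. Their median was -0.28, near the -0.13 of all genes. Mcm5, of the replicative helicase, had -0.85 (-1.24 to -0.47), and Tyms and Rrm2, which make deoxynucleotides, 0.80 and 0.54.

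Cycling genes were spread unevenly over the E11.5 barcodes. In those that were not mixed, the G2 and M phase list summed to a median of 56.3 per 10000 non-globin UMIs with a 10th percentile of 2.51 and a 90th of 138, whereas at E9.5 the median was 27.1, from 12.4 to 55.0 at the same percentiles. S phase genes had a median of 14.2 (2.41 to 58.9) at E11.5 and of 26.4 (11.7 to 40.8) at E9.5. A wider spread was also found in other barcodes. There the G2 and M phase list had a median of 16.4 (0 to 85.8) at E11.5 and of 32.7 (16.8 to 64.6) at E9.5. Barcodes were thinned to 500 non-globin UMIs, and 1 at E9.5 with fewer was left out. Mki67 then had a UMI in 14.9% of 121 barcodes at E9.5 against 37.8% of 135 at E11.5, and unthinned in 81.1% and 84.4% of all. Without the mixed barcodes the thinned shares were 7.34% and 43.2% in a separate random draw of UMIs, so the draws differ as well as the barcodes.

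The 8 barcodes of E11.5 with 75% or more globin UMIs stood apart in these lists. They held 5 UMIs of G2 and M phase genes, 180 per 1000000 non-globin UMIs (58.5 to 420), against 7612 (7411 to 7818) in the 110 barcodes between 50 and 75%. S phase genes were at 396 against 2428, while iron handling genes were at 93825 against 59442 and haem synthesis genes at 15482 against 12712. Their medians were 1002 genes and 3216 non-globin UMIs, against 1712 and 5852, and none was mixed. These 8 were set apart by the globin share itself, and the comparison is a description.

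Genes of cell cycle exit, listed together with the D cyclins, were higher at E11.5 in 3 of 6, beside 11.3% of all genes, and in 2 of 5 without the mixed barcodes beside 12.6%. Cdkn2d, an inhibitor of CDK4 and CDK6, went from 29 to 201 UMIs, 3.09 (2.52 to 3.71), and Gadd45a, a growth arrest gene, had 1.07 (0.73 to 1.41). Ccnd3, the cyclin D of red cell precursors, stood at 508 and 777, 0.61. The third, Cdkn1c, had 898 UMIs at E11.5, of which 25 were in barcodes that were not mixed. Chromatin genes were higher in 2 of 12, near the 11.3% of all genes, and in 3 of 9 without the mixed barcodes beside 12.6%. The 2 were H2afx with 1.74 (1.54 to 1.95) and the linker histone Hist1h1c with 1.74 (1.23 to 2.28), with a median of 0.40. Of the genes of developmental timing, Lin28b, an RNA-binding protein of early stages, had 36 UMIs at E9.5 against 1 at E11.5, Lin28a 14 and 0 and Trim71 18 and 0, all under 100 UMIs. The same genes were also lower at E11.5 in other barcodes, at 60.0 and 6.15 for Lin28b. Igf2 was higher (2.27), Igf2bp1 lower (-1.31), and Hmga2 had 1.18, and -1.14 without the mixed barcodes, where 7 of its 166 E11.5 UMIs remained. Without the mixed barcodes Igf2 kept 8 of its 98 UMIs at E11.5, and Igf2bp1 79 of 122 at E9.5 and 10 of 40 at E11.5. These 2 and Hmga2 then had under 100 UMIs over the stages, and none of the 2 genes that kept enough UMIs was past 2-fold. Of the 13 genes of this list, 5 had enough UMIs, 2 were higher and 1 lower, beside 11.3% and 11.2% of all genes, with a median of -0.25.

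Glycolysis was the list with the lowest median. Of 15 genes, 10 had enough UMIs, 6 were at least 2-fold lower at E11.5 beside 11.2% of all genes, and 1 was higher, with a median log2 ratio of -1.13. Without the mixed barcodes the median was -2.42, 7 of 8 were lower beside 17.9% of all genes, and none higher. Ldha, lactate dehydrogenase A, went from 1347 to 206, -2.71 (-2.92 to -2.50), and -4.46 without the mixed barcodes. Tpi1, Aldoa, Pgam1 and Pkm, of the chain from fructose bisphosphate to pyruvate, had -1.87, -1.80, -1.13 and -1.19, and -2.46, -2.71, -2.38 and -3.60 without them. The higher gene, Ldhb, had 122 UMIs at E11.5, 8 of them outside the mixed barcodes. In other barcodes the summed level of the list was 9851 at E9.5 against 5870 at E11.5, beside 5363 (5237 to 5491) and 2405 (2312 to 2501) in the red cells.

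Mitochondrial messages had a median log2 ratio of -0.47, with 1 of 12 past 2-fold lower beside 11.2% of all genes, and of -0.81 without the mixed barcodes, with 4 of 12 beside 17.9%. Their sum went from 3.19% to 2.81% of non-globin UMIs, and from 3.28% to 2.39% without the mixed barcodes, while other barcodes went from 2.31% to 3.97%. mt-Co1 differed in sign at 0.52 (0.47 to 0.58), and mt-Nd3 was the gene past 2-fold at -1.01, and at -1.78 without the mixed barcodes. The 85 ribosomal protein genes summed to 32.6% of non-globin UMIs at E9.5 against 28.3% at E11.5, beside 23.7% and 20.8% in other barcodes, and 5 of 82 were past 2-fold lower beside 11.2% of all genes and none higher.

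**Figure D4:**
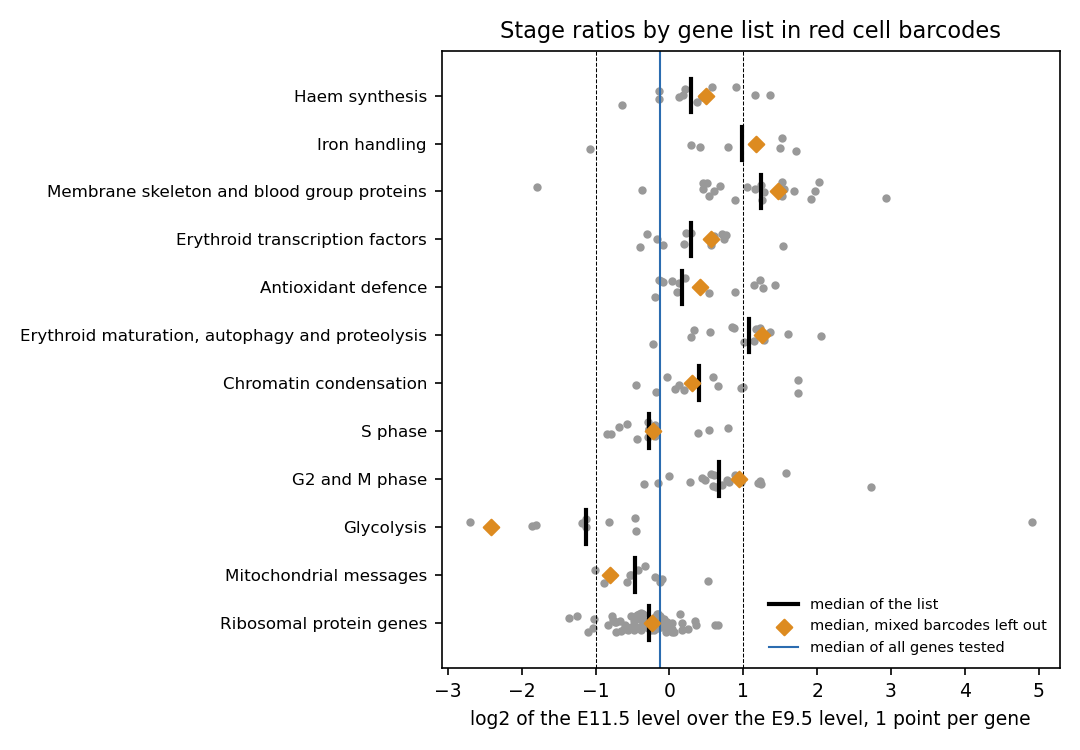
Log2 ratio of the E11.5 over the E9.5 level (x axis) for each gene with enough UMIs, by gene list (y axis), with the median of the list as a bar and that without mixed barcodes as a diamond. The membrane list has its median at 1.24 and glycolysis at -1.13, with -2.42 without mixed barcodes, beside -0.13 for all genes.

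Among the 10 most abundant RNAs of E9.5 outside the globins, mitochondrial and ribosomal protein genes, Npm1, a nucleolar protein of ribosome assembly, had the lowest ratio. It went from 4488 to 1058, -2.08 (-2.18 to -1.99), and -3.37 without the mixed barcodes. Hsp90ab1, a chaperone, and Ppia, a prolyl isomerase, had -1.02 and -0.87, and -1.49 and -1.47 without them. Of the 10 of E11.5, the metallothionein Mt1, which binds zinc and copper, went from 2265 to 5764, 1.35 (1.28 to 1.41), against 11.9 and 18.6 in other barcodes. At E11.5 it had a UMI in 68 of the 94 white-marked barcodes and in 133 of 135 red cell barcodes. Thinned to 500 non-globin UMIs these shares were 20.2% and 79.3%. The long noncoding RNA Malat1 had 1.83, and the histone variant gene H3f3a 1.11.

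The genes with the highest stage ratios were ranked among those at least 2-fold higher in the red cells than in other barcodes at 1 stage or both. Of the 15 highest, 8 passed at E11.5 alone, and of the 15 lowest, 8 passed at E9.5 alone and 1 at E11.5 alone. In those genes the filter and the stage ratio are tied, so the order is a description. Rgcc, a regulator of the cell cycle, had 4 UMIs at E9.5 against 121 at E11.5, a log2 ratio of 5.22 (3.82 to 7.12). It was also higher at E11.5 in other barcodes, at 3.56 and 27.0, and in the endothelial-marked ones, at 5.29 and 93.7. Pdzk1ip1, a small membrane protein, had 29 and 635, 4.75 (4.21 to 5.34), and was near absent from other barcodes at 0.0653 and 0.0786 per 1000000. Hsd3b6, a steroid dehydrogenase, had 16 and 328, 4.66 (3.93 to 5.48). UMIs of Pdzk1ip1 were found in 24 of 122 barcodes at E9.5 against 124 of 135 at E11.5, and of Hsd3b6 in 12 and 97, so neither rested on a few barcodes. Ackr3, a scavenging receptor of the chemokine Cxcl12, had 9 and 181, 4.63 (3.67 to 5.78), and stood at 16.1 and 36.1 in other barcodes. Lockd, Ypel5, Rec114, Ift140, Cdkn2d, Fam117a, Ypel3, Rhd, Pus10, Tspo and Ncoa7 followed with ratios from 3.76 to 2.79. Tspo, a protein of the outer mitochondrial membrane, went from 88.2 to 612, and stood at 505 in the white-marked barcodes of E11.5. All 15 stayed past 2-fold without the mixed barcodes.

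At the other end, Psph, the last enzyme of serine synthesis, went from 182 UMIs to 10, a log2 ratio of -3.89 (-4.97 to -2.98), with a UMI in 84 of 122 and 8 of 135 barcodes, and -4.48 without the mixed ones. Mrap, an accessory protein of the melanocortin 2 receptor, went from 324 to 27, -3.29 (-3.91 to -2.72). Mrap was near absent elsewhere in both libraries, at 253 and 25.9 against 0.269 and 0.0707 in other barcodes. Cited2, a transcriptional cofactor, went from 443 to 86.4, -2.36 (-2.69 to -2.03), while its relative Cited4 stood at 715 and 725, 0.02 (-0.12 to 0.16). Eif4ebp1, an inhibitor of cap-dependent translation, had -2.31 (-2.67 to -1.97). Shmt2, of mitochondrial serine use, Asns, asparagine synthetase, and Gars and Sars, which charge glycine and serine transfer RNAs, had -2.05, -1.78, -1.93 and -1.42. With barcodes thinned to 500 UMIs, Shmt2 was at 0.16, beside -2.05 (-2.67 to -1.48) with all UMIs and -1.99 without the mixed barcodes. In other barcodes Psph went from 36.9 to 23.6 and Asns from 45.0 to 36.2, while Cited2 went from 124 to 49.3 and Eif4ebp1 from 188 to 92.1, each more than 2-fold lower there too. Shmt2, Gars and Sars went from 46.7, 115.5 and 86.4 to 34.3, 90.8 and 80.7. Tmem56, Nxpe2, Slc2a1, Baz1a, Mecr, Slc29a1 and Stxbp2 completed the 15 with ratios from -1.91 to -1.25. Stxbp2 was at -0.90 without the mixed barcodes, short of 2-fold, and it and Mecr then had under 100 UMIs.

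**Figure D5:**
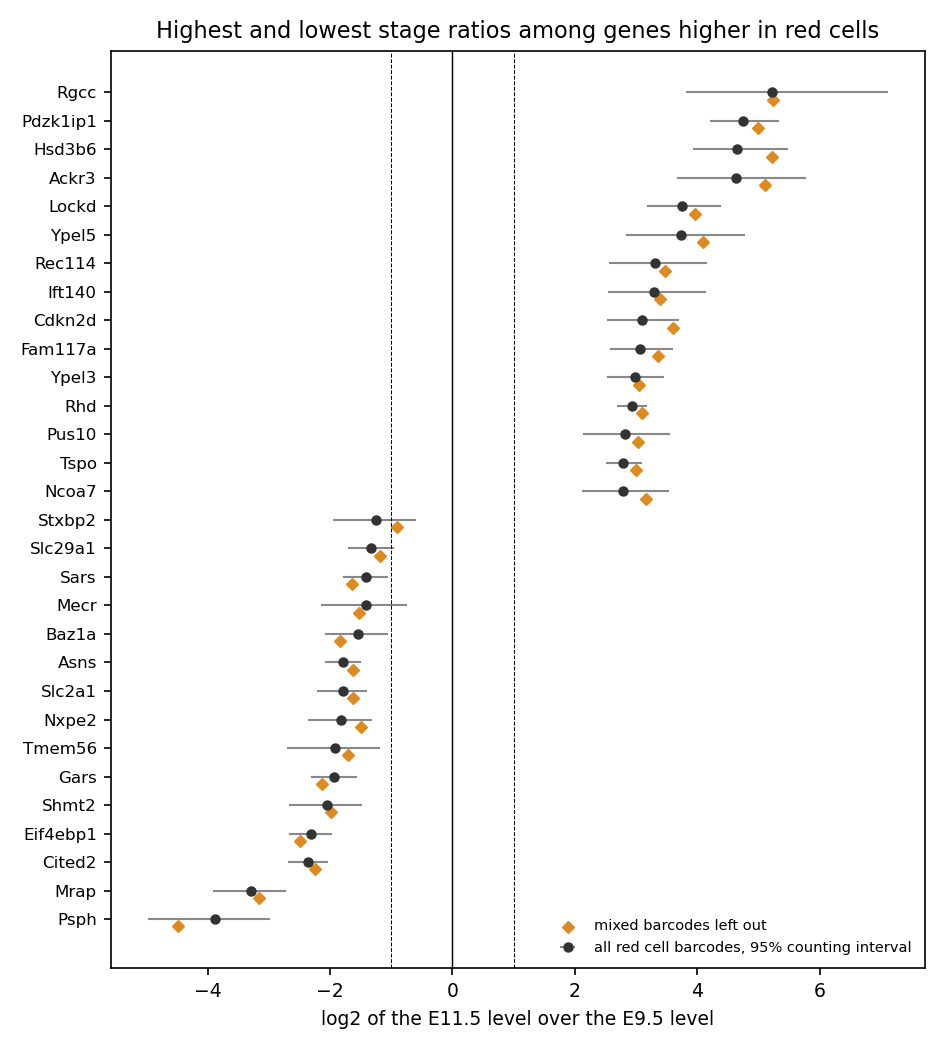
Log2 ratio of the E11.5 over the E9.5 level (x axis) for the 15 genes with the highest and the 15 with the lowest ratio among genes at least 2-fold higher in red cells than in other barcodes at a stage, with 95% counting intervals, and without mixed barcodes as diamonds. Rgcc leads at 5.22 and Psph ends at -3.89, and the diamonds lie on the same side of 0 in all 30 genes.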

How the data were processed

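Single-cell libraries were prepared by the authors with the 10x Genomics Chromium system and aligned with Cell Ranger 3.0.1 to mm10, which gave the deposited UMI counts per gene and barcode for 27998 genes, without normalization. The matrices still held barcodes that the filters of the study remove, and these were applied as stated. Counts were summed over barcodes in Python 3.11.15 with scipy 1.17.1, divided by all UMIs outside the 7 globin genes, and given per 1000000. Ratios have exact conditional 95% intervals of 2 Poisson counts. A count of 0 was set to 3 counts in a ratio. No test was run, as each stage is 1 library of pooled embryos. Genes needed 100 UMIs in red cell barcodes of both stages together. Depth differed between stages, so shares of barcodes with a UMI were also taken after thinning to 500 non-globin UMIs. Doublets were kept, and scores came from Scrublet in scanpy 1.11.5.

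Genes were named from the lists, as the 15 highest and 15 lowest stage ratios among genes at least 2-fold higher in red cell than in other barcodes at a stage, as the 20 highest ratios over other barcodes, and as the 10 most abundant per stage. From the ratio and abundance rules globin, mitochondrial and ribosomal protein genes, and for the ratios names starting with Gm or ending in Rik, were left out. The red cell rule and the lists were chosen with earlier results of these data known. Alternatives were other globin thresholds (5, 25 and 50%), no filter on barcodes, removal of doublet calls or of mixed barcodes, other scalings and weights, and other UMI minimums. In simulated counts for E11.5 over E9.5 over 2775 genes, 99.0% of 200 genes changed 4-fold came out past 2-fold, and 0% of unchanged genes. These counts held Poisson counting error alone, without spread between barcodes, libraries or embryos and without mixed barcodes. They check the code of the ratios and give no rate of false calls in these data. Ahsp and Kmt5a did not match a symbol and were not analysed here. Some genes of the named sets and lists are not reported here by name and remain in the counts and medians. The libraries share 30 barcode strings, 1 of them a red cell barcode in each.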

Additional observations from a re-analysis of the deposited data

How the results depend on the processing

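No paired analysis was possible because each stage is 1 library. The share of red cell barcodes at E9.5 was 0.944% at a globin threshold of 25% and 0% at 50%, where the stages could not be compared. With at least 500 UMIs per gene, 62 genes were 2-fold higher, 59 lower (of 643) and 56 at least 4-fold over other barcodes, and with 1 UMI in each stage 1908, 1237 and 326 (of 9536). Thinned to 500 UMIs they were 143, 142 and 92 (of 892). Per UMI of any gene 99 were higher and 1138 lower. Of the medians of 14 lists with 5 or more genes that had enough UMIs, 4 were past 2-fold (membrane, glycolysis, maturation, and cell cycle exit with D cyclins), and 2 with all deposited barcodes. Without the mixed barcodes the cell cycle exit median was 0.98, short of 2-fold, and that of iron handling 1.17, past it. Per UMI of any gene the membrane, maturation and cell cycle exit medians fell short of 2-fold, while the mitochondrial and S phase medians were past 2-fold lower. Mki67 had a UMI in 27.97% and 53.0% of barcodes (E9.5 and E11.5) thinned to 1000, 81.1% and 84.4% unthinned, and 2 UMIs in 62.3% and 77.0%. Thinning to 1000 left out 4 barcodes at E9.5 and 3 at E11.5 that had fewer UMIs. For 48 of the genes, 130 of 528 values moved beyond the spread and 1 was counted as reversed: Shmt2, 0.16 thinned to 500. Among the named genes, Gata1, Cpox, Zfpm1 and Hmga2 also turned sign without the mixed barcodes, as given above. Small positive ratios turned per UMI of any gene. Of 151 alternative list medians, 50 moved beyond the spread. Mixed barcodes and the E9.5 doublet threshold were chosen after seeing the data. The cause of these shifts was not tested. Embryos were pooled, so differences between embryos are not covered.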

Other observations

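Globin RNA was also found outside the red cell barcodes. A globin UMI was present in 22.2% of the 9729 other barcodes at E9.5 and 56.1% of the 9460 at E11.5, with 36213 and 9587 globin UMIs in all. At E9.5, Hbb-y made up 42.8% of those UMIs, Hba-x 31.4% and Hbb-bh1 11.6%, beside 44.6%, 30.8% and 11.9% in the red cells of the same library. At E11.5 the shares were 58.3%, 18.9% and 2.87%, beside 56.5%, 22.8% and 3.24%. In other barcodes 24 at E9.5 and 3 at E11.5 had a globin share above 1%, and of these 11 and 1 lay between 5 and 10%.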
